A study of Homo sapiens with 6 samples.

Results

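The genes described here build the kinetochore, the protein structure that ties each chromosome to spindle microtubules, or run the spindle checkpoint that watches over it. They are 42 genes chosen by name, among them the CENP genes, the Ndc80, Mis12, Knl1, RZZ and Ska complexes, the checkpoint kinases and the chromosomal passenger complex. All 42 have a row of their own among the 27434 rows of each deposited table, and all 42 were among the 13034 genes that passed the filter on low counts and were tested.

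The libraries come from HT-29, an established human colorectal adenocarcinoma cell line. The cells were transfected with a pool of siRNAs against the lncRNA HOXA-AS3 (siHOXA-AS3), with a pool against the lncRNA HOXB-AS3 (siHOXB-AS3) or with a non-targeting control pool (siNT), and polyA RNA was sequenced, with 2 libraries per group. The labels give 10 nM siRNA and harvest after 48 h in every group, and the methods of the study give another dose. All groups share the parental line and the transfection, each lncRNA was targeted with a single pool in a single line, and nothing in the labels says that the libraries of a group came from separate cultures, so the p-values measure only the spread between these libraries. The comparisons ask how the transcriptome of HT-29 cells differs when either lncRNA is depleted.

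A kinetochore is assembled on nucleosomes that hold the histone variant CENP-A. The constitutive centromere network (CCAN) binds these nucleosomes, and the Knl1, Mis12 and Ndc80 complexes are stacked on it and grip microtubule ends. At kinetochores without a microtubule, TTK and BUB1 recruit MAD1L1 and MAD2L1, and the resulting complex with BUB1B and BUB3 holds back the anaphase-promoting complex until every chromosome is attached. Many of these genes are switched on late in the cell cycle through CHR and CCAAT promoter elements, which are read by the DREAM and MuvB complexes with FOXM1 and by NF-Y. In a bulk culture, fewer cells in that phase and less RNA per cell cannot be told apart.

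The promoter sequences show how common these elements are among the 42 genes. RefSeq windows of 300 bases (250 before to 50 after each start, GRCh38.p14) were held for 34 of the genes, with 39 windows in all. The CHR letters TTTGAA stood on either strand in 18 of the 39 windows (46.2%), against 15.2% of all 35116 windows. The letters CCAAT stood in 25 (64.1%) against 34.6% of all windows. The variant CHR letters TTTAAA or TTCGAA stood in 6 (15.4%) against 13.5%, and the E2F letters TTTCCCGC or TTTGGCGC in 3 (7.69%) against 2.27%. Some genes have overlapping windows, and counted once each the TTTGAA matches in the windows of the members lie at 18 places, 14 of them (77.8%) beginning within 50 bases of a start, against 28.2% of the 5886 places in all windows. The 250 bases upstream of 5 members follow in the direction of transcription, with every match to these letters in capitals. They were picked to show members with both elements, with only a CHR match and with only CCAAT matches.
CENPA (plus strand, chr2:26785806-26786055): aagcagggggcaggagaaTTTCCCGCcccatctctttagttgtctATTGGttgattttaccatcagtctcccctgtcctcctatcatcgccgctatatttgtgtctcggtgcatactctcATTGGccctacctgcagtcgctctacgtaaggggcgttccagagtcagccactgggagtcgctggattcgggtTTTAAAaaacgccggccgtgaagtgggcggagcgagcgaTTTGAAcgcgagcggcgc
CDCA8 (plus strand, chr1:37692266-37692515): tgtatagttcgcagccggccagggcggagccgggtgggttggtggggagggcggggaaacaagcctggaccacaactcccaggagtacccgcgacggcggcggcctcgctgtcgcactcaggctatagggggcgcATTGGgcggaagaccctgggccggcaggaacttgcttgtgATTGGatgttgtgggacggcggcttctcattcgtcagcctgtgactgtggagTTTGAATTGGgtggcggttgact
INCENP (plus strand, chr11:62123761-62124010): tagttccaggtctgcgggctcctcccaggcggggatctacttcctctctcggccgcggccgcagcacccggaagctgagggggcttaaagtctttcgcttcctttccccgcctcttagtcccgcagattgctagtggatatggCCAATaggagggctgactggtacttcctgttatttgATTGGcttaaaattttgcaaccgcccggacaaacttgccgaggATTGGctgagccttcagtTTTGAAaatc
BUB1B (plus strand, chr15:40160819-40161068): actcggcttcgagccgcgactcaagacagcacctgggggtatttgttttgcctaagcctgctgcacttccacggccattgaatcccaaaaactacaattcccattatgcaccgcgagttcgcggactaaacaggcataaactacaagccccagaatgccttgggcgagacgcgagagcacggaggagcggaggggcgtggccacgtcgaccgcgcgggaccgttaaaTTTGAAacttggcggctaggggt
SPC24 (minus strand, chr19:11155783-11156032): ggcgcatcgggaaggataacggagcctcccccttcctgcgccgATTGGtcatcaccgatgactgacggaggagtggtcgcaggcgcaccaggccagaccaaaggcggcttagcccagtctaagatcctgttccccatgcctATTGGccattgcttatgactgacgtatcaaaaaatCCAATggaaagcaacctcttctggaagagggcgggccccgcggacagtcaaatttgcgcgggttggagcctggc
In CENPA the CHR letters began 18 bases before the start, in CDCA8 and BUB1B 23 bases before it and in INCENP 10 bases before it. In CDCA8 the CHR match shares its last base with a CCAAT match on the other strand. SPC24 had CCAAT matches only. A match is a description of the letters and not a bound site.

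Each targeted lncRNA was lower in both libraries of its own siRNA pool than in the other 4. Neither difference passed the edgeR test against siNT, which takes its spread from all 6 libraries. HOXA-AS3 stood at 0.380 and 0.30 FPKM in siNT, 0.130 and 0.190 in siHOXA-AS3, and 0.320 and 0.260 in siHOXB-AS3, with an edgeR log2 fold change of -1.09 ± 0.40 in siHOXA-AS3 (edgeR adjusted p = 0.711), from 38, 18, 12 and 12 expected counts in the siNT and siHOXA-AS3 libraries. HOXB-AS3 stood at 27.04 and 29.3 FPKM in siNT, 25.6 and 27.8 in siHOXA-AS3, and 6.05 and 7.96 in siHOXB-AS3, with a log2 fold change of -1.96 ± 0.25 in siHOXB-AS3 (edgeR adjusted p = 0.0678). Both lncRNAs are antisense to HOX genes, and whether counting used the strand is not given in the sources used here. Epithelial markers were abundant (KRT18 2093 and 2273 FPKM and EPCAM 289 and 278 FPKM in siNT), although CDX2 reached at most 0.34 FPKM. The 6 markers of leukocytes, endothelium, fibroblasts, B cells and T cells summed to between 0.1 and 0.25 FPKM in a library, with COL1A2 at 0 throughout. Total expected counts ran from 15998518 to 26263938 per library, and counts of single members from 42 to 6829. The 2 siHOXA-AS3 libraries stood apart from each other: their difference per gene followed transcript GC content over all genes with a GC value (Pearson r = 0.76, n = 12622 genes of the same libraries), with r = -0.42 between the siNT libraries and r = 0.15 between the siHOXB-AS3 libraries. The main counts and medians that rest on siHOXA-AS3 are therefore also given without each of its libraries. Levels of the members are given library by library. Medians by promoter letters and most fold changes of genes outside the members are over both siHOXA-AS3 libraries only.

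The level of a gene is given here as FPKM, fragments scaled by gene length and by library size, in replicate 1 and then replicate 2 of each group. Differences are log2 fold changes from edgeR fitted on the counts of all 6 libraries. A value after a ± sign is a standard error, computed from the fold change and the F statistic of the edgeR test. The spread behind it is shared by all 6 libraries, so it includes the split between the siHOXA-AS3 libraries. Whether libraries of 2 groups overlap was judged on log2 CPM, and the background beside a count is the share of all genes tested that met the same criterion. For calls at an adjusted p this share counts both directions, also where all members called went the same way.

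In siHOXA-AS3 most members lay below siNT in replicate 1 but not in replicate 2. The outer kinetochore genes SPC24, SPC25 and SKA1, the Mis12 subunit DSN1, the CCAN gene CENPO and the passenger genes AURKB and BIRC5 stood lowest relative to their spread over both libraries. The fitted log2 fold change was below 0 for 36 of the 42 members, against 48.7% of all genes tested, and the median was -0.27 over the members and 0.01 over all genes. These values rested on replicate 1. Fitted without it, 22 members were below 0 (53.3% of all genes) and the median was -0.025 (-0.05 over all genes). Fitted without replicate 2, 41 were below 0 (51.2% of all genes) and the median was -0.53 (-0.01 over all genes). 16 members were lower in both siHOXA-AS3 libraries than in both siNT libraries (background over all genes 16.1%), and 0 were higher in both (background 12.5%). No member passed the edgeR test at an adjusted p of 0.05 (background 0%), and adjusted p-values ran from 0.517 to 0.999. At an unadjusted p below 0.05, 7 members were lower (background 3.41%) and 0 were higher (background 2.75%). DESeq2 called 0 members (background 0.453%) and limma-trend on FPKM called 0 (background 0.00767%). An exact permutation test of 2 against 2 libraries cannot go below p = 0.33, so none was run.

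**Figure D1:**
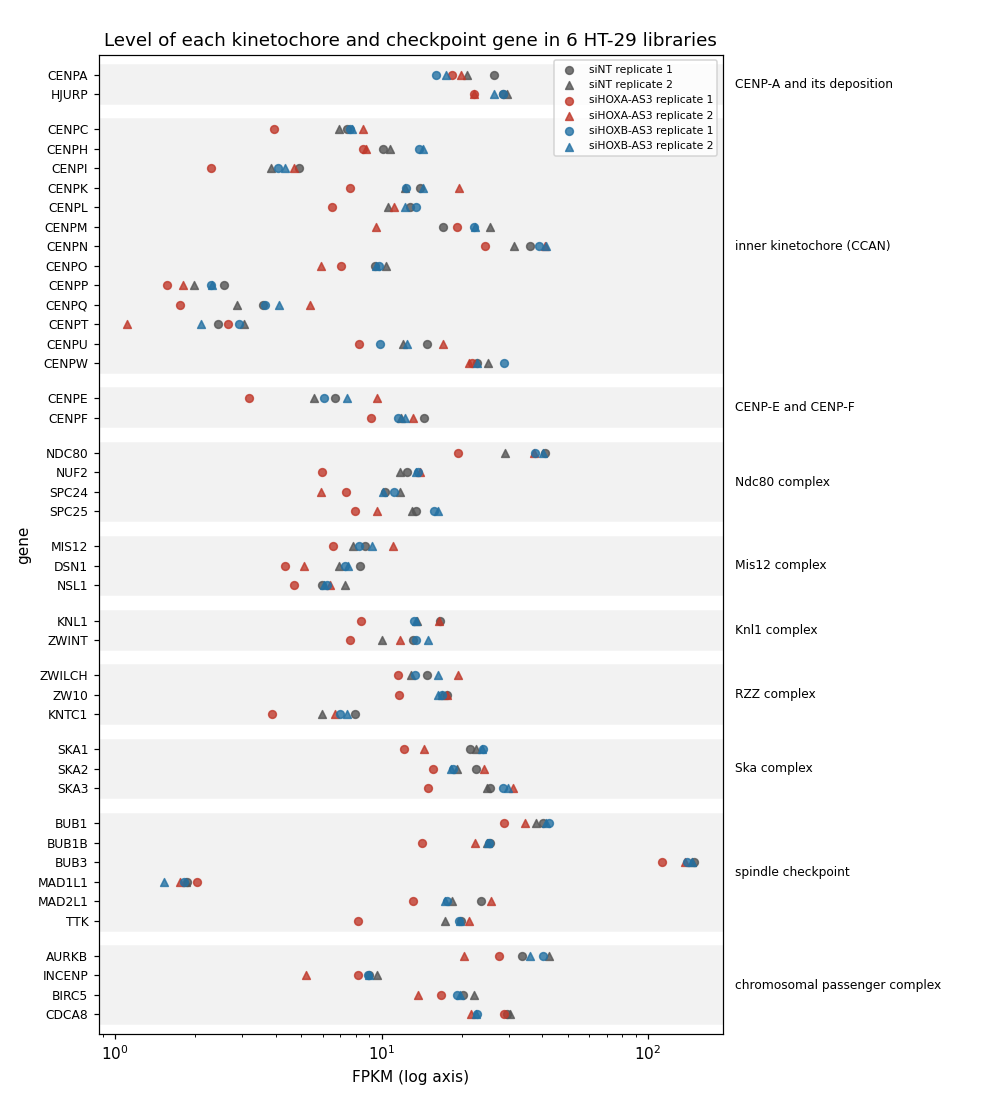
FPKM (log axis) of each of the 42 genes in each library, grouped by complex, with colours for the groups and circles and triangles for replicates 1 and 2. BUB3 stands highest, between 113 and 149 FPKM, the siHOXA-AS3 libraries spread most, and for SKA1, DSN1, SPC25 and CENPO both siHOXA-AS3 libraries lie below all others.

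Much of the spread in siHOXA-AS3 lay between its own 2 libraries. In replicate 1, 39 of the 42 members were below both siNT libraries and the median over the members was -0.52 log2 CPM relative to the siNT mean, with a mean of -0.54. In replicate 2, 19 were below both siNT libraries and 16 above both, with a median of -0.0015 and a mean of -0.12. The means were 0.05 and 0.07 in the siHOXB-AS3 libraries, and 0.04 and -0.04 in the siNT libraries.

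The position of a member between the 2 siHOXA-AS3 libraries went with its GC content. The members had a median transcript GC content of 43.6%, from 33.9% to 62.1%, against a median of 49.8% over all genes tested. Over the 42 members, the difference of replicate 1 from replicate 2 had a Pearson r of 0.90 and a Spearman rho of 0.85 with GC content. This is a description over genes that share the same 2 libraries. Over the same members r was -0.63 between the siNT libraries and 0.53 between the siHOXB-AS3 libraries. The differences were smaller there, with a standard deviation of 0.23 in siNT and 0.15 in siHOXB-AS3 against 0.68 in siHOXA-AS3 on the log2 scale. The 21 members of 43.1% GC or less were all below both siNT libraries in replicate 1, with a median of -0.77, but had a median of 0.21 in replicate 2, where 5 were below both siNT libraries. The 21 members of 44.0% GC or more had medians of -0.45 in replicate 1 and -0.32 in replicate 2, with 18 and 14 members below both siNT libraries.

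**Figure D2:**
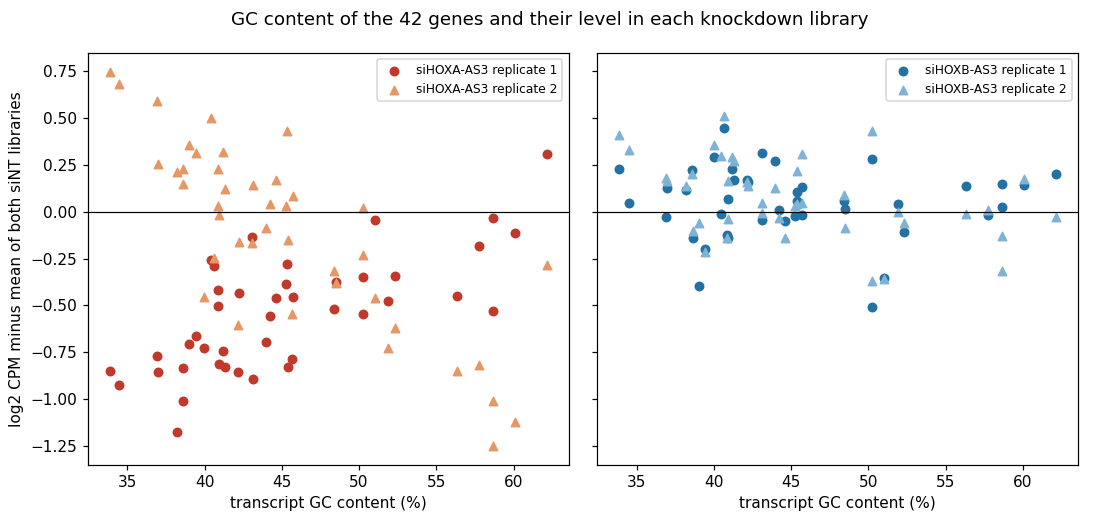
Transcript GC content (%) of each member against its log2 CPM minus the mean of both siNT libraries, for the siHOXA-AS3 libraries (left) and the siHOXB-AS3 libraries (right). In siHOXA-AS3, replicate 1 lies below 0 for nearly all members, while replicate 2 runs from above 0 at low GC content to below -1.0 at high GC content, and the siHOXB-AS3 libraries lie close to each other.

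Some members therefore had fold changes of opposite sign depending on the library used. Fitted without siHOXA-AS3 replicate 2, 28 members were called, all lower (background 17.9%). Without siHOXA-AS3 replicate 1, 15 were called, 11 lower and 4 higher (background 30.3%). The 4 higher genes were CENPE, CENPK, CENPQ and ZWILCH. CENPE, CENPK and CENPQ had log2 fold changes of -0.93, -0.77 and -0.88 without replicate 2, and 0.67, 0.58 and 0.73 without replicate 1. CENPO, DSN1, HJURP, SKA1 and SPC24 were among the members below 0 in both fits. They ran from -0.85 (SKA1) to -0.37 (HJURP) without replicate 2, and from -1.02 (SPC24) to -0.38 (HJURP) without replicate 1. Over all 42 members, the fold changes of the 2 fits had opposite signs for 21 and the same sign for 21. The share of all genes with the same sign in both fits was not computed. In these fits the remaining siHOXA-AS3 library takes its spread from the other groups. When the trend of each library on GC content was removed, 7 members were called, all lower (background 4.1%): CENPO, SPC24, DSN1, KNL1, KNTC1, SKA1 and AURKB. The median was then -0.34 (0.0044 over all genes), with 39 members below 0. That step also takes out any difference between groups that runs with GC content.

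The complexes depended on the library to different degrees. Without siHOXA-AS3 replicate 1 the median log2 fold change was -0.72 for the passenger genes, and without replicate 2 it was -0.26. Over all genes these medians were -0.05 and -0.01. For the Ndc80 genes the medians were -0.18 and -0.79, in the same order, and for the CCAN -0.099 and -0.54. The Mis12, Knl1, RZZ and Ska complexes had medians above 0 without replicate 1 (0.17, 0.06, 0.04 and 0.22) and below 0 without replicate 2 (-0.45, -0.70, -0.55 and -0.74). The checkpoint genes had medians of -0.06 and -0.55. CENPE and CENPF had 0.34 and -0.72, while CENPA and HJURP had -0.32 and -0.36.

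With siHOXB-AS3 the same genes were close to siNT. The log2 fold change was below 0 for 15 of 42 members, against 50.7% of all genes, and the median was 0.07 over the members and -0.01 over all genes. No member passed the edgeR test (background 0.0614%), with adjusted p-values from 0.377 to 0.998, and DESeq2 called 0 members (background 2.73%). Both tests take their spread from all 6 libraries, so the split between the siHOXA-AS3 libraries enters these p-values. For CENPE, a gene split in this way, the standard error was 0.46 in the edgeR fit. On the siNT and siHOXB-AS3 libraries only it was 0.13. At an unadjusted p below 0.05, CENPH was higher (1 member, background 4.42%) and 0 members were lower (background 7.75%). In 4 members both siHOXB-AS3 libraries lay below the siNT pair (CENPA, SKA2, MAD2L1 and CDCA8, background 30.9%), and in 14 both lay above it (background 30.9%). Fitted on the siNT and siHOXB-AS3 libraries only, 3 members were called, CENPH higher and CENPA and CDCA8 lower, while 23.3% of all genes were called.

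**Figure D3:**
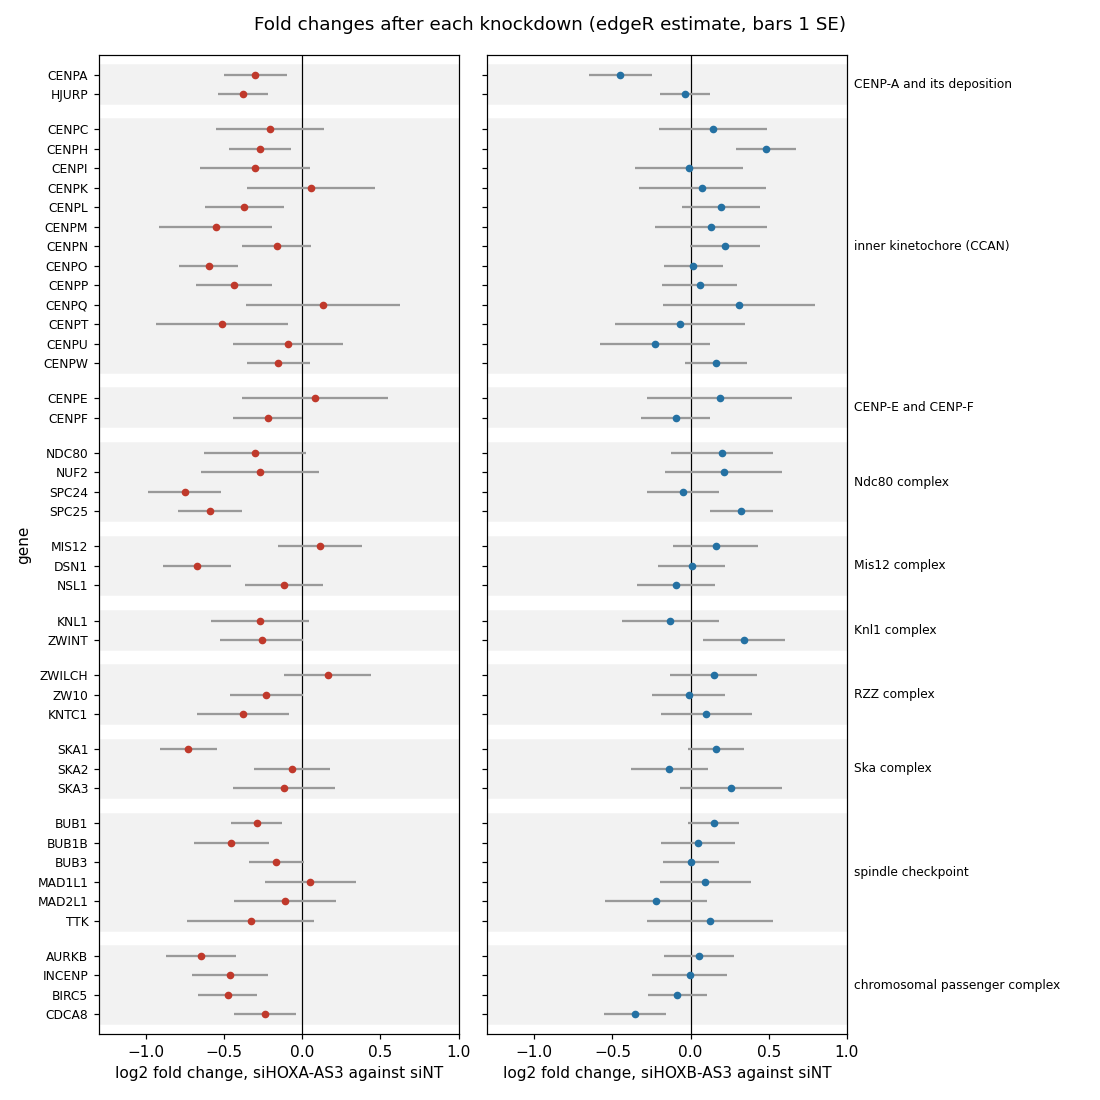
Log2 fold change of each member against siNT after siHOXA-AS3 (left) and after siHOXB-AS3 (right), grouped by complex. Bars are 1 SE, computed from the edgeR test on all 6 libraries. On the left, over both siHOXA-AS3 libraries, 36 of 42 points lie below 0 (22 without replicate 1 and 41 without replicate 2) and reach -0.75 (SPC24), and on the right the points lie between -0.45 (CENPA) and 0.48 (CENPH).

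Set directly against each other, the siHOXB-AS3 libraries held more of these transcripts than the siHOXA-AS3 libraries. 36 of 42 members had a higher level in siHOXB-AS3 and 6 a lower level, where 51.1% of all genes were lower. The median log2 difference was 0.38 over the members and -0.01 over all genes. 20 members were higher in both siHOXB-AS3 libraries (background 22.8%), and CENPA was the 1 member lower in both (background 22.5%). At an unadjusted p below 0.05, 8 members were higher (background 7.9%) and 0 lower (background 10.5%). No member passed the edgeR test (background 1.57%), SKA1 and SPC25 coming nearest with edgeR adjusted p = 0.0671 and edgeR adjusted p = 0.0832, and DESeq2 called these 2 (background 6.04%). With the GC trend removed 21 members were called, all higher in siHOXB-AS3 (background 25.4%). Without siHOXA-AS3 replicate 1, 18 were called, 13 higher and 5 lower (CENPE, CENPK, CENPU, SKA2 and MAD2L1; background 37.8%), and without replicate 2, 30 were called, all higher (background 36%). The median was 0.12 in the former fit (0.023 over all genes), with 19 members lower (48.4% of all genes). It was 0.56 in the latter fit (-0.0149 over all genes), with 4 lower (51.0% of all genes). Between these 2 fits the log2 differences had opposite signs for 21 members and the same sign for 21. AURKB, BUB1, CENPH, CENPO, DSN1, HJURP, SKA1, SPC24 and SPC25 were among those above 0 in both. They ran from 0.31 (BUB1) to 0.97 (SPC24) without replicate 1, and from 0.33 (HJURP) to 1.05 (SPC25) without replicate 2. The share of all genes with the same sign in both fits was not computed.

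At the centromere, HJURP is the chaperone that deposits CENP-A. HJURP stood at 28.6 and 29.5 FPKM in siNT, 22.2 and 22.2 in siHOXA-AS3, and 28.5 and 26.4 in siHOXB-AS3. Both siHOXA-AS3 libraries lay below the other 4, with a log2 fold change of -0.38 ± 0.16 (edgeR adjusted p = 0.803). CENPA, the histone itself, stood at 26.4 and 20.9 FPKM in siNT, 18.4 and 19.9 in siHOXA-AS3, and 15.97 and 17.5 in siHOXB-AS3. It was below siNT with either siRNA pool, at -0.30 ± 0.20 on the log2 scale in siHOXA-AS3 and -0.45 ± 0.20 in siHOXB-AS3 (edgeR adjusted p = 0.449).

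The 13 CCAN genes link CENP-A chromatin to the outer kinetochore. The most abundant of them was CENPN, at 35.96 and 31.3 FPKM in siNT, 24.4 and 41.1 in siHOXA-AS3, and 39.05 and 41.4 in siHOXB-AS3, which had -0.16 in siHOXA-AS3 and 0.22 ± 0.22 in siHOXB-AS3 on the log2 scale (edgeR adjusted p = 0.764). The least abundant was CENPP, at 2.56 and 1.98 FPKM in siNT, 1.56 and 1.79 in siHOXA-AS3, and 2.28 and 2.31 in siHOXB-AS3, with -0.44 ± 0.24 and 0.06 ± 0.24. CENPO, a subunit of the network, stood at 9.43 and 10.4 FPKM in siNT, 7.02 and 5.90 in siHOXA-AS3, and 9.79 and 9.52 in siHOXB-AS3. The siHOXA-AS3 libraries lay below the other 4, and the log2 fold change was -0.60 ± 0.19 against siNT (edgeR adjusted p = 0.641) and 0.62 ± 0.19 for siHOXB-AS3 against siHOXA-AS3 (edgeR adjusted p = 0.155). In the GENCODE v29 annotation 31.4% of the exonic bases of CENPO lie opposite exons of ADCY3 and PTRHD1, and 42.7% of those of CENPP opposite exons of other genes, so reads of these could be shared if strand was not used.

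CENPH had the highest fold change of the members in siHOXB-AS3. It stood at 10.2 and 10.7 FPKM in siNT, 8.52 and 8.74 in siHOXA-AS3, and 13.8 and 14.3 in siHOXB-AS3, highest in siHOXB-AS3 and lowest in siHOXA-AS3 with no overlap between groups. Its log2 fold change was 0.48 ± 0.19 in siHOXB-AS3 (edgeR adjusted p = 0.377), -0.27 ± 0.20 in siHOXA-AS3, and 0.75 ± 0.20 between the knockdowns (edgeR adjusted p = 0.113). CENPK (36.9% GC) stood at 13.9 and 12.2 FPKM in siNT, 7.61 and 19.5 in siHOXA-AS3, and 12.4 and 14.2 in siHOXB-AS3. CENPQ (33.9% GC) stood at 3.58 and 2.87 FPKM in siNT, 1.75 and 5.38 in siHOXA-AS3, and 3.64 and 4.12 in siHOXB-AS3. Both were lowest in siHOXA-AS3 replicate 1 and highest in its replicate 2. The GC-rich genes of the network went the other way. CENPM (60.1% GC) stood at 19.3 and 9.56 FPKM in siHOXA-AS3 and 16.96 and 25.6 FPKM in siNT. CENPT (58.6% GC) stood at 2.65 and 1.11 FPKM in siHOXA-AS3 and 2.43 and 3.03 FPKM in siNT, with 19.6% of its exonic bases opposite exons of other genes. Of the other CCAN genes, CENPW stood at 22.8 and 24.98 FPKM in siNT, 21.8 and 21.2 in siHOXA-AS3, and 28.8 and 22.8 in siHOXB-AS3. Both of its siHOXA-AS3 libraries lay below all others, with a log2 fold change of -0.15 ± 0.20 against siNT. CENPC, CENPI, CENPL and CENPU were lowest in siHOXA-AS3 replicate 1, at -0.85, -0.89, -0.70 and -0.70 log2 CPM relative to the siNT mean. In its replicate 2 they stood at 0.25, 0.14, -0.09 and 0.35. Their fitted log2 fold changes were -0.20, -0.30, -0.37 and -0.09 over both siHOXA-AS3 libraries. In siHOXB-AS3 they were 0.14, -0.01, 0.20 and -0.23.

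CENPE, a kinesin, and CENPF, a large coiled-coil protein, form part of the corona that unattached kinetochores build. CENPF stood at 14.4 and 11.8 FPKM in siNT, 9.13 and 13.2 in siHOXA-AS3, and 11.5 and 12.2 in siHOXB-AS3, with -0.22 ± 0.22 in siHOXA-AS3 and -0.10 ± 0.22 in siHOXB-AS3 on the log2 scale. CENPE (34.5% GC) stood at 6.68 and 5.56 FPKM in siNT, 3.19 and 9.60 in siHOXA-AS3, and 6.09 and 7.39 in siHOXB-AS3. In CENPE the 2 siHOXA-AS3 libraries were the lowest and the highest of all 6, and the fold change over both was 0.08 ± 0.47 in siHOXA-AS3 and 0.19 ± 0.46 in siHOXB-AS3.

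The Ndc80 complex binds microtubules through NDC80 and NUF2 and is anchored through SPC24 and SPC25. Over both siHOXA-AS3 libraries the anchoring subunits had the lower fold changes, an order that replicate 1 did not show. In replicate 1, NUF2 and NDC80 stood at -1.01 and -0.83 log2 CPM relative to the siNT mean, and SPC25 and SPC24 at -0.72 and -0.53. In replicate 2 the values were 0.23 and 0.12 for NUF2 and NDC80, and -0.45 and -1.01 for SPC25 and SPC24. SPC25 stood at 13.5 and 13.02 FPKM in siNT, 7.97 and 9.62 in siHOXA-AS3, and 15.8 and 16.3 in siHOXB-AS3, and the 3 groups did not overlap. Its log2 fold change was -0.59 ± 0.20 in siHOXA-AS3 (edgeR adjusted p = 0.678), 0.32 ± 0.20 in siHOXB-AS3 (edgeR adjusted p = 0.586) and 0.91 ± 0.20 between the knockdowns, the largest difference of any member in that comparison. SPC24, the member of lowest FPKM in the complex, stood at 10.3 and 11.7 FPKM in siNT, 7.35 and 5.93 in siHOXA-AS3, and 11.2 and 10.2 in siHOXB-AS3, with -0.75 ± 0.23 in siHOXA-AS3 (edgeR adjusted p = 0.641) and 0.70 ± 0.23 between the knockdowns (edgeR adjusted p = 0.179). In both genes the siHOXA-AS3 libraries lay below the other 4. NDC80 stood at 40.98 and 29.2 FPKM in siNT, 19.4 and 37.2 in siHOXA-AS3, and 37.7 and 40.2 in siHOXB-AS3, where replicate 2 of siHOXA-AS3 lay within the siNT range and the log2 fold change was -0.30 ± 0.33. NUF2 stood at 12.4 and 11.7 FPKM in siNT, 5.99 and 13.9 in siHOXA-AS3, and 13.7 and 13.5 in siHOXB-AS3, with -0.27 in siHOXA-AS3 and 0.21 in siHOXB-AS3. Whether the subunits differ from each other was not tested.

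The Mis12 complex joins the CCAN to the microtubule-binding layer. DSN1, the subunit through which AURKB strengthens binding to the CCAN, stood at 8.33 and 6.89 FPKM in siNT, 4.35 and 5.10 in siHOXA-AS3, and 7.31 and 7.50 in siHOXB-AS3, with both siHOXA-AS3 libraries below the other 4. Its log2 fold change was -0.67 ± 0.22 in siHOXA-AS3 (edgeR adjusted p = 0.641) and 0.68 ± 0.22 between the knockdowns (edgeR adjusted p = 0.164). MIS12 stood at 8.64 and 7.79 FPKM in siNT, 6.58 and 11.01 in siHOXA-AS3, and 8.25 and 9.18 in siHOXB-AS3, with 0.11 ± 0.27 in siHOXA-AS3 and 0.16 ± 0.27 in siHOXB-AS3 on the log2 scale. NSL1 stood at 5.96 and 7.28 FPKM in siNT, 4.69 and 6.39 in siHOXA-AS3, and 6.23 and 6.09 in siHOXB-AS3, with -0.12 ± 0.25 and -0.09 ± 0.25. For both of these genes the siHOXA-AS3 libraries overlapped siNT.

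In the Knl1 complex, KNL1 is the scaffold on which BUB1 and BUB3 dock and ZWINT its partner. KNL1 stood at 16.6 and 13.6 FPKM in siNT, 8.36 and 16.4 in siHOXA-AS3, and 13.2 and 13.5 in siHOXB-AS3, with a log2 fold change of -0.27 ± 0.31 in siHOXA-AS3 and -0.13 ± 0.31 in siHOXB-AS3. ZWINT stood at 13.1 and 10.01 FPKM in siNT, 7.63 and 11.8 in siHOXA-AS3, and 13.5 and 14.99 in siHOXB-AS3, with -0.26 ± 0.26 and 0.34 ± 0.26 (edgeR adjusted p = 0.668 in siHOXB-AS3). In both genes siHOXA-AS3 replicate 1 was the lowest library. Replicate 2 lay within the siNT range in FPKM, but in log2 CPM that of KNL1 lay above both siNT libraries.

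The RZZ complex brings dynein to kinetochores. ZW10 stood at 17.6 and 16.9 FPKM in siNT, 11.7 and 17.6 in siHOXA-AS3, and 16.8 and 16.3 in siHOXB-AS3, with a log2 fold change of -0.23 ± 0.23 in siHOXA-AS3 and -0.01 ± 0.23 in siHOXB-AS3. KNTC1 stood at 7.92 and 5.98 FPKM in siNT, 3.89 and 6.71 in siHOXA-AS3, and 6.98 and 7.43 in siHOXB-AS3, with -0.38 ± 0.29 and 0.10 ± 0.29. ZWILCH stood at 11.5 and 19.4 FPKM in siHOXA-AS3 against 14.8 and 12.9 FPKM in siNT, 1 library below and 1 above, and had the highest log2 fold change of any member in that comparison, 0.16 ± 0.28.

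The Ska complex steadies the grip of kinetochores on microtubule ends, and SKA1 had the smallest p-value of all members in siHOXA-AS3. SKA1 stood at 21.5 and 22.7 FPKM in siNT, 12.1 and 14.4 in siHOXA-AS3, and 24.1 and 23.8 in siHOXB-AS3, with the siHOXA-AS3 libraries far below the other 4. Its log2 fold change was -0.73 ± 0.18 in siHOXA-AS3 (edgeR adjusted p = 0.517), 0.16 ± 0.18 in siHOXB-AS3 (edgeR adjusted p = 0.787) and 0.89 ± 0.18 between the knockdowns (edgeR adjusted p = 0.0671). SKA1 had a GC content of 42.1%, within the range of the members that diverged between the siHOXA-AS3 libraries, and both libraries lay below siNT. SKA3 stood at 25.5 and 24.8 FPKM in siNT, 14.97 and 31.1 in siHOXA-AS3, and 28.5 and 29.7 in siHOXB-AS3, with -0.12 ± 0.33 in siHOXA-AS3 and 0.26 ± 0.33 in siHOXB-AS3 on the log2 scale. SKA2 stood at 22.6 and 19.2 FPKM in siNT, 15.6 and 24.1 in siHOXA-AS3, and 18.5 and 18.3 in siHOXB-AS3, with -0.07 ± 0.24 and -0.14 ± 0.24. Both were lowest in siHOXA-AS3 replicate 1 and highest in its replicate 2.

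Among the checkpoint genes, BUB3, which binds phosphorylated KNL1, was the most abundant member, at 149 and 147 FPKM in siNT, 113 and 138 in siHOXA-AS3, and 139.9 and 146 in siHOXB-AS3, and had a log2 fold change of -0.17 ± 0.18 in siHOXA-AS3 and 0.00 ± 0.18 in siHOXB-AS3. Its siHOXA-AS3 libraries were below siNT in FPKM but overlapped siNT in log2 CPM. MAD1L1, which carries MAD2L1 to the kinetochore, was the least abundant of the complex, at 1.86 and 1.85 FPKM in siNT, 2.02 and 1.75 in siHOXA-AS3, and 1.81 and 1.53 in siHOXB-AS3, with 0.05 ± 0.29 and 0.09 ± 0.29. Its siHOXB-AS3 libraries were below siNT in FPKM and overlapped siNT in log2 CPM. BUB1, the kinase that recruits the other checkpoint proteins, stood at 40.4 and 37.97 FPKM in siNT, 28.9 and 34.7 in siHOXA-AS3, and 42.4 and 41.5 in siHOXB-AS3, with siHOXB-AS3 highest and siHOXA-AS3 lowest. Its log2 fold change was -0.29 ± 0.16 in siHOXA-AS3, 0.15 ± 0.16 in siHOXB-AS3 (edgeR adjusted p = 0.794) and 0.44 ± 0.16 between the knockdowns (edgeR adjusted p = 0.220). BUB1B, part of the inhibitor of the anaphase-promoting complex, stood at 25.6 and 24.9 FPKM in siNT, 14.1 and 22.4 in siHOXA-AS3, and 25.4 and 25.1 in siHOXB-AS3, with -0.45 ± 0.24 in siHOXA-AS3 and 0.05 ± 0.24 in siHOXB-AS3, and 10.2% of its exonic bases are shared with the read-through gene BUB1B-PAK6. TTK, the kinase that starts the signal, stood at 19.9 and 17.3 FPKM in siNT, 8.18 and 21.2 in siHOXA-AS3, and 19.5 and 19.7 in siHOXB-AS3, with -0.33 ± 0.41 and 0.12 ± 0.40. MAD2L1 stood at 23.6 and 18.4 FPKM in siNT, 13.1 and 25.8 in siHOXA-AS3, and 17.6 and 17.3 in siHOXB-AS3, with -0.11 ± 0.33 and -0.22 ± 0.33. The siHOXA-AS3 libraries of TTK and of MAD2L1 lay on either side of the siNT values.

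The chromosomal passenger complex corrects faulty attachments through the kinase AURKB, and all 4 of its genes were below siNT in both siHOXA-AS3 libraries. AURKB stood at 33.7 and 42.4 FPKM in siNT, 27.5 and 20.4 in siHOXA-AS3, and 40.3 and 36.2 in siHOXB-AS3, with a log2 fold change of -0.65 ± 0.22 in siHOXA-AS3 (edgeR adjusted p = 0.678) and 0.70 ± 0.22 between the knockdowns (edgeR adjusted p = 0.168). BIRC5, or survivin, which takes the complex to the centromere, stood at 20.2 and 22.3 FPKM in siNT, 16.7 and 13.7 in siHOXA-AS3, and 19.1 and 19.7 in siHOXB-AS3, with -0.48 ± 0.19 (edgeR adjusted p = 0.760). INCENP, the scaffold, stood at 8.96 and 9.60 FPKM in siNT, 8.13 and 5.21 in siHOXA-AS3, and 8.87 and 9.0 in siHOXB-AS3, with -0.46 ± 0.24. CDCA8, or borealin, stood at 29.6 and 30.4 FPKM in siNT, 28.9 and 21.6 in siHOXA-AS3, and 22.8 and 22.6 in siHOXB-AS3, with -0.24 ± 0.20 in siHOXA-AS3 and -0.36 ± 0.20 in siHOXB-AS3 (edgeR adjusted p = 0.547). The 4 genes have GC contents of 51.03% to 57.8%, and each was lower in replicate 2 than in replicate 1 of siHOXA-AS3. Their mean log2 CPM relative to siNT was -0.26 in replicate 1 and -0.69 in replicate 2, against -0.09 and -0.11 in siHOXB-AS3. For the Ndc80 genes the siHOXA-AS3 means were -0.77 and -0.28, and for the Ska genes -0.67 and -0.02.

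The fold changes can be set beside the promoter letters. The 17 members with TTTGAA in a window had a median log2 fold change of -0.27 in siHOXA-AS3 and 0.05 in siHOXB-AS3, and the 17 with a window but without the letters had -0.12 and 0.06. This difference was not tested, and the siHOXA-AS3 medians are over both of its libraries, which stood apart.

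Genes that work with the kinetochore were measured in the same libraries, as lists written with these data already known. The background over all genes in siHOXA-AS3 was 48.7% below 0, with 3.41% lower and 2.75% higher at an unadjusted p below 0.05. In siHOXB-AS3 it was 50.7%, 7.75% and 4.42% in the same order. Of 22 other kinetochore and centromere genes 19 had a row of their own. In siHOXA-AS3, 14 of the 19 were below 0 (median -0.22) and 3 had an unadjusted p below 0.05, all lower: TRIP13, the ATPase that recycles MAD2L1 (-0.56 ± 0.16), BOD1 (-0.77 ± 0.22) and the kinesin KIF2C (-0.42 ± 0.17). Relative to siNT the list averaged -0.53 log2 CPM in the first siHOXA-AS3 library, and -0.064 in the second. Without replicate 1 its median was 0.0029, and without replicate 2 it was -0.47. In siHOXB-AS3 the median was 0.09, and TRIP13 alone had an unadjusted p below 0.05, higher at 0.51 ± 0.16, with HASPIN at -0.46 ± 0.20 and KIF2C at 0.20 ± 0.17. TRIP13 stood at 33.98 and 34.6 FPKM in siNT, 22.6 and 23.9 in siHOXA-AS3, and 47.6 and 46.9 in siHOXB-AS3, with no overlap between the groups, and was called higher in siHOXB-AS3 than in siHOXA-AS3 at 1.07 ± 0.16 (edgeR adjusted p = 0.0384). The log2 difference of TRIP13 was 1.03 with siHOXA-AS3 replicate 1 left out and 1.11 with replicate 2 left out.

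Among 21 genes of the anaphase-promoting complex and its regulators, the target of the checkpoint, 15 were below 0 in siHOXA-AS3 (median -0.14), and 1, the separase gene ESPL1 (-0.59 ± 0.24), had an unadjusted p below 0.05, followed by ANAPC15 (-0.49 ± 0.21) and the securin gene PTTG1 (-0.34 ± 0.15). Without siHOXA-AS3 replicate 1 the median was -0.15, with 11 of 21 below 0 (53.3% of all genes). Without replicate 2 it was -0.19, with 17 of 21 below 0 (51.2% of all genes). In siHOXB-AS3 the median was 0.05 and 0 passed that level, CDC23 (0.33 ± 0.19), ANAPC15 (-0.35 ± 0.21) and CDC16 (-0.28 ± 0.21) coming nearest. Of 16 cohesin and condensin genes with a row, 13 were below 0 in siHOXA-AS3 (median -0.32) and 4 had an unadjusted p below 0.05, all lower: the cohesin core gene SMC1A (-0.45 ± 0.15), CDCA5 (-0.69 ± 0.23), which guards cohesion, and the condensin genes NCAPD2 (-0.43 ± 0.16) and NCAPG2 (-0.43 ± 0.16). In this list replicate 1 carried most of the difference, with a mean log2 CPM of -0.52 relative to siNT against -0.076 in replicate 2. Its median was -0.045 without replicate 1, with 8 of 16 below 0 (53.3% of all genes). Without replicate 2 it was -0.52, with 16 of 16 below 0 (51.2% of all genes). In siHOXB-AS3 the median was 0.02 and 0 passed, with WAPL at -0.50 ± 0.27, NCAPG at 0.45 ± 0.28 and PDS5A at -0.38 ± 0.27. Of 15 mitotic kinases and cyclins, 14 were below 0 in siHOXA-AS3 (median -0.23), and 1, the phosphatase gene CDC25C (-0.65 ± 0.18), had an unadjusted p below 0.05, followed by MASTL (-0.52 ± 0.26) and CCNB2 (-0.34 ± 0.17). The median of these was -0.15 without replicate 1 and -0.54 without replicate 2. In siHOXB-AS3 the median was -0.03, and 1 gene passed that level, WEE1, which delays entry into mitosis, at 0.82 ± 0.27, with CDC25A at 0.46 ± 0.21 and CDC25C at -0.30 ± 0.18. None of the genes of these 4 lists passed the edgeR test against siNT at an adjusted p of 0.05 in the fit on all libraries.

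The regulators of late cell-cycle genes were mixed. Of 25 DREAM, MuvB and FOXM1 genes, 14 were below 0 in siHOXA-AS3 (median -0.05), 4 had an unadjusted p below 0.05 and were lower (RBBP4, E2F8, MYBL2 and FOXM1), and 1 was higher (CDKN1A, at 0.87 ± 0.29). RBBP4, a MuvB subunit, stood at 42.1 and 41.04 FPKM in siNT, 23.2 and 28.00 in siHOXA-AS3, and 38.1 and 41.3 in siHOXB-AS3, with a log2 fold change of -0.69 ± 0.16 (edgeR adjusted p = 0.517), and E2F8 had -0.65 ± 0.19. MYBL2, which joins MuvB to activate late genes, stood at 32.9 and 35.6 FPKM in siNT, 25.6 and 16.4 in siHOXA-AS3, and 41.5 and 45.9 in siHOXB-AS3, with -0.70 ± 0.24. FOXM1, an activator of late cell-cycle genes, stood at 55.9 and 58.4 FPKM in siNT, 43.2 and 32.6 in siHOXA-AS3, and 47.4 and 45.3 in siHOXB-AS3, with -0.58 ± 0.18 (edgeR adjusted p = 0.641). In 9 of the 25 genes both siHOXA-AS3 libraries lay below the siNT pair (background 16.1%), among them RBBP4, E2F8, MYBL2 and FOXM1. In 4 genes both lay above it (background 12.5%). The median of the list was -0.0051 without replicate 1 and -0.16 without replicate 2. MYBL2, NCAPG2 and CDKN1A are named because they complete the counts at an unadjusted p below 0.05, after their values were seen. In siHOXB-AS3 the median was -0.02, with E2F3 at 0.69 ± 0.19 and E2F5 at 0.74 ± 0.23, the 2 genes at an unadjusted p below 0.05, and TFDP2 at -0.50 ± 0.23.

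The proliferation markers differed among themselves. MKI67 stood at 111 and 104 FPKM in siNT, 70.4 and 67.2 in siHOXA-AS3, and 64.8 and 62.7 in siHOXB-AS3, below siNT with both siRNA pools, at -0.63 ± 0.13 (edgeR adjusted p = 0.465) and -0.71 ± 0.13 (edgeR adjusted p = 0.112) on the log2 scale. TOP2A had -0.30 ± 0.29 and -0.44 ± 0.29, and PCNA -0.18 ± 0.18 and 0.08 ± 0.18. In siHOXA-AS3 MKI67 had -0.66 without replicate 1 and -0.60 without replicate 2, while TOP2A had 0.085 and -0.81. MKI67 was below both siNT libraries in all 4 knockdown libraries, and its part in the values of the members was not tested. Of the 9 epithelial markers, 7 were below 0 in siHOXB-AS3 (50.7% of all genes), with a median of -0.46. CEACAM5 was called lower, at -1.63 ± 0.15 (edgeR adjusted p = 0.0492), with EPCAM at -0.81 ± 0.14 and CDH1 at -0.46 ± 0.15. KRT8 (0.20 ± 0.31) and KRT18 (0.14 ± 0.23) were above siNT in both siHOXB-AS3 libraries in log2 CPM but overlapped siNT in FPKM. In siHOXA-AS3 5 of the 9 were below 0 (48.7% of all genes), with a median of -0.05. That median was -0.19 without replicate 1 and 0.17 without replicate 2. CDX2 was at -1.08 ± 0.58, from 20, 8, 6 and 6 expected counts in the siNT and siHOXA-AS3 libraries. CDH1 was at 0.18 ± 0.15 and KRT20 at 0.18 ± 0.16.

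**Figure D4:**
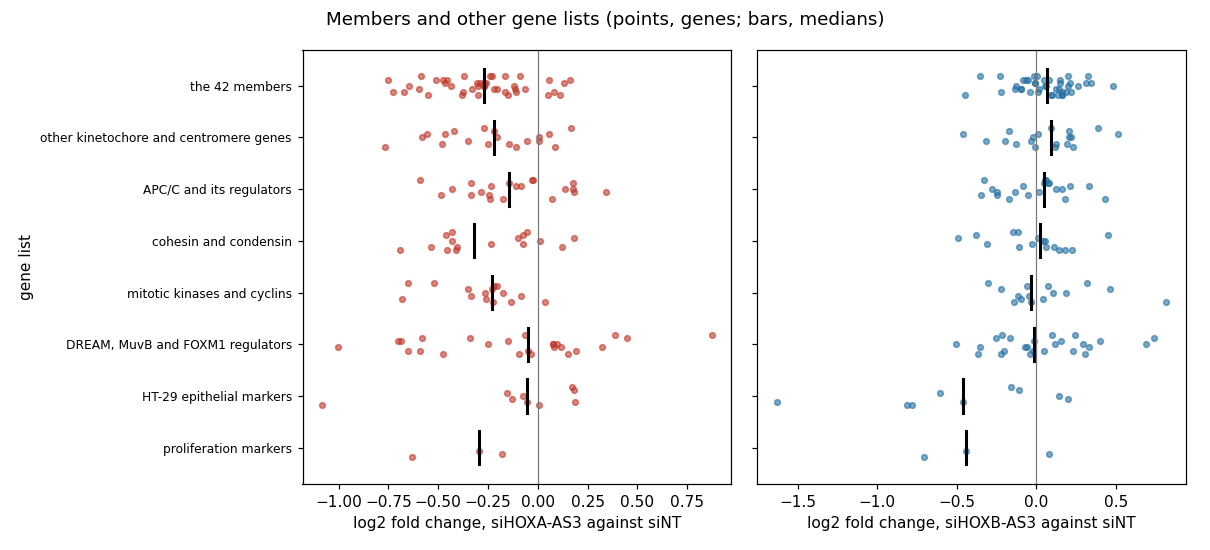
Log2 fold change against siNT of the 42 members and of each other list, after siHOXA-AS3 (left) and siHOXB-AS3 (right), with points for genes and black bars for medians; the horizontal axes of the panels differ. In siHOXA-AS3 the medians of the members and of the 4 mitotic lists lie between -0.32 and -0.14 over both libraries, and in siHOXB-AS3 they lie between -0.03 and 0.09.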

How the data were processed

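RNA-seq of HT-29 cells in 3 groups of 2 libraries was analysed. The libraries were made with a Lexogen SENSE mRNA kit, and the authors quantified them with RSEM on RefSeq genes (hg19 per the labels). Neither the aligner nor the strand setting nor the version of RSEM is given in the sources used here. The deposited tables hold expected counts, estimated by RSEM without normalization. They also hold deposited TPM values, which were not used, and deposited FPKM values, scaled to gene length and sequencing depth. Rows joining several genes (627 of 27434) held 6.02% to 6.62% of the counts.

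Rounded expected counts went into edgeR 4.0.16 under R 4.3.3: filterByExpr (minimum count 10), TMM, robust quasi-likelihood test on all 6 libraries, Benjamini-Hochberg adjustment over 13034 genes, threshold 0.05. Alternatives were DESeq2 1.42.0, limma-trend (limma 3.58.1) on log2(FPKM + 0.1), library totals or RLE factors for scaling, a mean FPKM of at least 1 or any count as the filter, only the groups compared, a replicate block, gene length or GC trends removed (lowess, span 0.3) and each library left out. GC content and exons came from GENCODE v29, and promoter windows from RefSeq; no hg19 coordinate was used. GC values covered 96.8% of genes tested and all members.

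The members and lists were chosen with earlier results of these data known. Any member may be named. Full statistics go to the 8 members with the smallest p in each comparison and to the highest and lowest by FPKM of each complex, and each other list gives its 3 genes with the smallest p per knockdown.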

Additional observations from a re-analysis of the deposited data

How the results depend on the processing

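The comparisons with siHOXA-AS3 depended on its libraries. Leaving out each library in turn, the members called in siHOXA-AS3 against siNT ran from 0 to 28, the median log2 fold change of the members from -0.53 to -0.025 and the members lower from 22 to 41. For siHOXB-AS3 against siHOXA-AS3 the calls ran from 0 to 30, the median from 0.12 to 0.56 and the members lower from 4 to 19, and for siHOXB-AS3 against siNT the calls ran from 0 to 3, where 22.6% and 22.7% of all genes were called. The ends far from the reported values came from leaving out either siHOXA-AS3 library, which leaves a lone library assumed to vary like the other groups. With the GC trend removed, 7 members were called in siHOXA-AS3 against siNT (4.1% of all genes) and 21 in siHOXB-AS3 against siHOXA-AS3 (25.4%). In the latter comparison DESeq2 called 2 (6.04% of all genes) and the fit with no filter on low counts 1 (3.99% of all genes). In siHOXB-AS3 against siNT, 3 were called on only the groups compared (23.3% of all genes), and the median was 0.019 with library totals and 0.021 by limma-trend on FPKM, against 0.07. The causes were not tested. The 24 fold changes of single members recomputed under 17 alternatives, those of the 8 smallest p in each comparison and so chosen for strong values, kept their sign, and 56 of the 408 values passed the threshold. Over all 42 members, 21 changed sign between the fits without either siHOXA-AS3 library. Low counts, down to 42 for a member in a library, limit the precision there.

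Replicate numbers recur across the groups, but nothing in the labels says that they pair the libraries, and the differences between replicates correlated at -0.35 (siNT and siHOXA-AS3), -0.14 (siNT and siHOXB-AS3) and 0.15 (the knockdowns) over genes. With the replicate block, 0 members were called in each comparison, and over all genes 0, 0 and 10 were called. With the siNT numbers crossed in the replicate block, an alternative chosen after seeing the data, 0, 0 and 2 members were called, against 0.107%, 1.73% and 5.82% of all genes.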
